A study of Mus musculus with 2 samples.

Results

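The calcium pumps and store-release genes studied here were 10 genes for calcium pumps, store-release channels and enzymes that act upstream of release. These genes were chosen by name and not by their values, though earlier results of these data were known. They were the pump genes Atp2a2, Atp2b1, Atp2b4 and Atp2c1, the inositol trisphosphate receptor genes Itpr1, Itpr2 and Itpr3, and the phospholipase C genes Plcg1, Plcd1 and Plcb3. All 10 had a probe on the array, 15 of its 25697 probes in all, and 10 of these probes, for 8 of the genes, were detected. Detection meant a deposited detection p-value below 0.01 in KO, in CON or in both, and 8865 of the 17872 genes on the array met it.

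Epidermal total RNA was compared between C57BL6 pups of postnatal day 5 that were labelled VDR knockout (KO) and littermate controls (CON). The KO genotype was VDR fl/fl with Cre driven by keratin 14, a promoter of basal keratinocytes, and the CON genotype was VDR fl/fl, so both groups carried the floxed alleles. The epidermis was taken from back skin with dispase, RNA of 3 mice was combined for each genotype, and each pool was read on 1 array. The series title gives its subject as synergism of signalling by the receptors for calcium and for vitamin D. Melanocytes, Langerhans cells and T cells of the epidermis do not arise from keratinocytes and would keep the receptor gene. As each genotype had 1 pool, no replicate spread and no test exist, each difference below is a size without a p-value, and precision is limited by having 2 arrays. In such bulk RNA, fewer cells of a type and less RNA per cell cannot be told apart.

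Keratinocytes differentiate along a gradient of extracellular calcium, and they read that gradient partly through calcium stored in the endoplasmic reticulum and the Golgi. Receptors at the cell surface activate phospholipase C, which splits a membrane lipid into diacylglycerol and inositol trisphosphate (IP3). IP3 opens its receptors on the endoplasmic reticulum and calcium flows out, after which pumps return it to the stores or expel it from the cell. In people, mutations of the pump genes ATP2A2 and ATP2C1 cause Darier disease and Hailey-Hailey disease, in which epidermal cells lose their contacts.

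The KO array had 11422 detected probes and the CON array 11501. Signals were background-corrected and quantile-normalized on the log2 scale, and the background inferred from the detection p-values was 141.93 ± 9.27 in KO and 137.94 ± 8.31 in CON (mean ± SD across negative controls). Vdr itself had raw signals of 2442.1 in KO and 1913.0 in CON at its brightest probe, a log2 change of 0.33. Its other detected probes gave 1559.6 in KO and 1203.7 in CON (0.37), and 189.0 in KO and 193.0 in CON (-0.23), so the probes did not share a direction. Probe positions relative to the deletion are not known here, so these probes check nothing, and every direction below assumes that the pool labelled KO is what its label says. As to the labelled tissue, 5 of 6 basal and 6 of 7 suprabasal marker genes with a probe were detected. So were 8865 of all 17872 genes, 5 of 6 T cell markers and 0 of 5 endothelial markers, so such counts alone do not identify the tissue.

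No calcium pump or store-release gene differed by 1.5-fold between the pool labelled KO and CON. Among the 8 detected genes 0 were higher and 0 lower by that rule, where 3.1% of all detected genes were higher and 2.28% lower. Atp2c1, the pump gene of the Golgi, was 1.496-fold lower in KO and was the member farthest from 0. Atp2a2, the pump gene of the endoplasmic reticulum, was 1.12-fold higher in KO, and the other 6 detected genes had log2 changes between -0.15 and 0.04. Since 0 of 8 lies close to what these background shares would give, the count sets the members apart from other genes in neither direction.

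**Figure D1:**
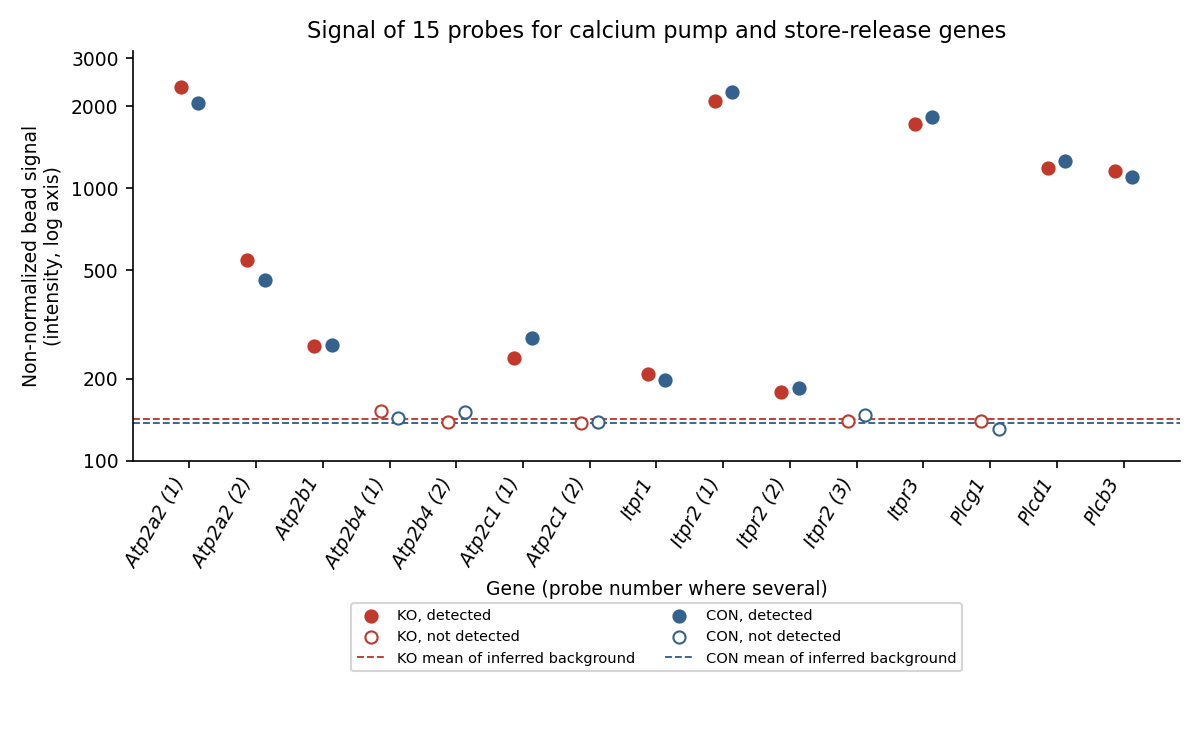
Raw bead signal (intensity, log axis) of the 15 probes, with KO left of CON at each probe, filled points for detection and open points for none, and dashed lines at each array's mean background. Levels of different probes cannot be compared, and the pools lie close together at all probes, with the widest gaps among detected ones at the second Atp2a2 probe (546.2 in KO and 460.7 in CON) and the first Atp2c1 probe (238.0 in KO and 281.9 in CON).

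Atp2c1 encodes the Golgi pump SPCA1, which loads calcium and manganese into the secretory pathway. Its brighter probe read a raw signal of 238.0 in the pool labelled KO and 281.9 in CON, with detection p-values of 0 in both. Above the mean background this left 96.1 in KO and 144.0 in CON, and the raw difference of -43.9 was large beside what remained. The normalized log2 signals were 6.77 in KO and 7.36 in CON, a change of -0.58. In the authors' normalized values, from which no background is subtracted, the signals were 246.6 in KO and 303.2 in CON and KO was 1.23-fold lower. The second Atp2c1 probe, at 137.5 in KO and 139.2 in CON, was not detected in either pool and gives no second reading.

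Among all 8865 detected genes 207, or 2.34%, were as far below 0 as Atp2c1 or farther. Within the 887 genes of like brightness, class 3 of 10 by mean signal, 23 genes (2.59%) were as low, and the SD across that class was 0.34. The Golgi pump was therefore in the outer part of the range for its brightness, in a class where 65 genes passed the 1.5-fold rule in either direction. It was singled out as the member farthest from 0, so its place in that range is no separate evidence.

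Because the vitamin D receptor binds DNA, the start regions of Atp2c1 were searched for its hexamers, and both annotated starts are shown to let them be compared. Each line holds the 250 bases before a start, from the RefSeq tables of build GRCm38.p6, minus strand, at chr9:105521258-105521507 for the first and chr9:105495134-105495383 for the second, with matches in capitals.
Atp2c1 upstream start: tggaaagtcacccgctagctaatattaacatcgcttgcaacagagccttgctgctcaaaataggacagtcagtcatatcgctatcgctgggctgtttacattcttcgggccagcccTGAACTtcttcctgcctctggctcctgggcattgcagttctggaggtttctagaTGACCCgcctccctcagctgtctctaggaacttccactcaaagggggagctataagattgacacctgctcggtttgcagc
Atp2c1 downstream start: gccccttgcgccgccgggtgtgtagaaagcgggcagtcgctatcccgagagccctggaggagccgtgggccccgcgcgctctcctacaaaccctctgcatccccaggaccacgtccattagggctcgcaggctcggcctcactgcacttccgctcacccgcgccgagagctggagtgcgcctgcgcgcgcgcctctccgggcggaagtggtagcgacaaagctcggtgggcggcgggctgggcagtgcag
The hexamers searched, on both strands, were the consensus AGGTCA with its variant AGTTCA, and the variant GGGTCA with its counterpart GGTTCA. The upstream start held AGTTCA at position -134 and GGGTCA at position -80, counted back from the start and both on the opposite strand, and the downstream start held none. Of all 32851 promoters of this length 38.6% held at least 1 such hexamer and 9.75% at least 2. Promoters were available for 8 members, 11 in all, including the undetected Atp2b4 and Plcg1 but not the detected Atp2a2 and Itpr1. Of these 11 promoters 3 held at least 1 hexamer, the others being a Plcd1 and the Plcb3 promoter. At least 2 were held by 2 of the 11 (18.2%), the upstream Atp2c1 start and that Plcd1 promoter. A direct repeat of the hexamers with a 3-base spacer is the classical element of this receptor. It was held by 0 of the 11 and by 13 of all promoters. Such matches describe letters in these windows and not binding.

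Atp2a2 encodes SERCA2, the pump that refills the endoplasmic reticulum of keratinocytes. Its first probe had raw signals of 2349.1 in KO and 2065.0 in CON, and normalized log2 signals of 11.1 in KO and 10.94 in CON. The second probe read 546.2 in KO and 460.7 in CON, with normalized log2 signals of 8.69 in KO and 8.42 in CON. Both probes were thus higher in the pool labelled KO, by 0.16 and 0.26 on the log2 scale. The first probe's change was reached by 25.3% of all detected genes and by 18.4% of genes of like brightness, whose SD was 0.19, so the difference lay inside that spread. In the authors' normalized values the probes were 1.11-fold and 1.14-fold higher in KO.

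The plasma membrane pumps gave little signal. Atp2b1, which encodes the pump PMCA1 that expels calcium from most cells, read 264.4 in KO and 266.8 in CON, a log2 change of -0.13 after normalization and of -0.01 in the ratio of raw signals. Atp2b4 encodes the related pump PMCA4, and neither of its probes was detected. They read 152.4 and 138.9 in KO, against 143.1 and 150.7 in CON, which is between -0.3 and 1.5 background SDs from the mean background. Its level in this epidermis is therefore not given by these probes, and no fold is given.

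The 3 IP3 receptor genes encode the channels through which the endoplasmic reticulum releases calcium. Itpr2 had 3 probes, of which the brightest read 2100.7 in KO and 2261.3 in CON, a log2 change of -0.15. Probe 2 read 179.0 in KO and 184.3 in CON, only 4.0 background SDs above the mean background in KO and 5.6 in CON, with a log2 change of -0.27. Probe 3, at 139.9 in KO and 146.9 in CON, was not detected. Both detected Itpr2 probes were slightly lower in the pool labelled KO, and the size of the second one depends on the background, since its raw ratio was 0.971.

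Itpr3 had a raw signal of 1718.5 in KO and 1831.9 in CON, a log2 change of -0.14. Itpr1, the form best known from Purkinje neurons, read 207.8 in KO and 197.7 in CON, 7.1 and 7.2 background SDs above the mean background, and changed by 0.04. The 2 receptor genes with bright probes, Itpr2 and Itpr3, were thus lower by about the same amount and Itpr1 was nearly level. Negative changes at least as large as those of Itpr2 and Itpr3 were seen in 25.5% and 26.8% of all detected genes, and in 18.7% and 19.6% of genes of like brightness.

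The phospholipase C genes supply IP3. Plcd1, whose product is activated by calcium and whose loss in mice causes hair loss and epidermal thickening, read 1186.7 in KO and 1255.5 in CON, a log2 change of -0.14. Plcb3 encodes an enzyme activated by G proteins of the Gq class and read 1154.7 in KO and 1099.3 in CON, a change of 0.02. Plcg1 encodes the enzyme activated by tyrosine kinases, which takes part in calcium-induced keratinocyte differentiation. Its only probe read 139.5 in KO and 130.9 in CON, below the mean background of both arrays, with detection p-values of 0.559 in KO and 0.81 in CON. Plcg1 thus gave no signal on this array, and a probe without signal does not show a gene without expression, as the basal integrin gene Itga6 was also not detected.

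**Figure D2:**
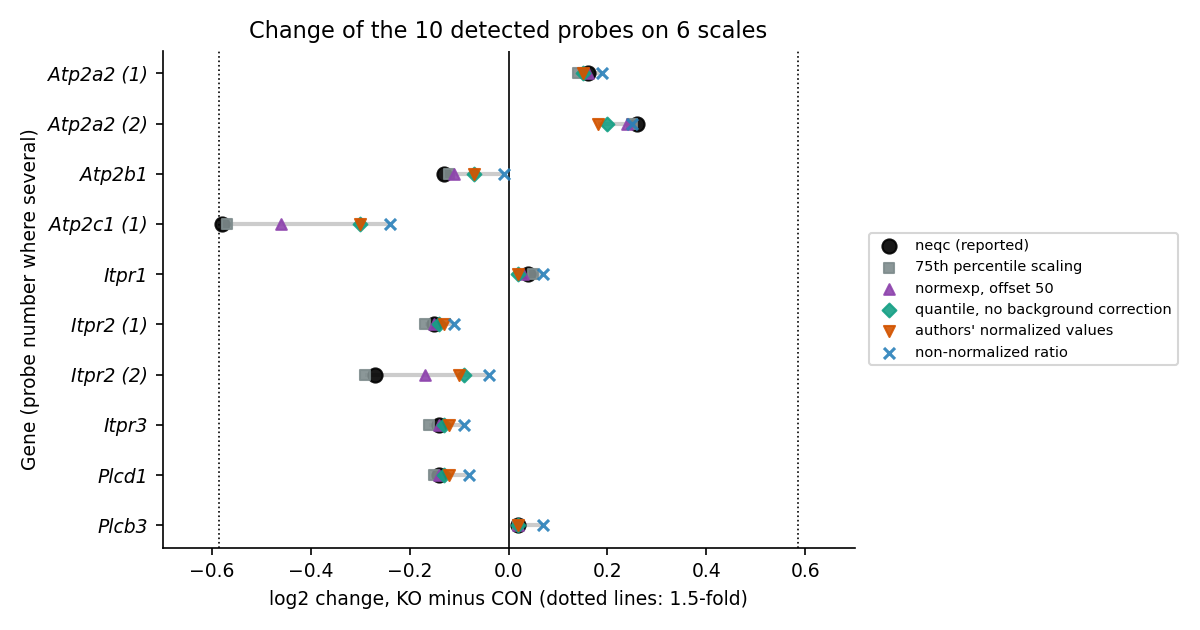
The log2 change (KO minus CON) of the 10 detected probes on 6 scales, where each symbol is a scale, grey bars join the lowest and highest, and dotted lines mark 1.5-fold. Each probe keeps its sign on all 6 scales and none reaches a dotted line, while Atp2c1 runs from -0.58 after background correction to -0.24 in the raw ratio.

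Considered together, the 8 detected genes had a median log2 change of -0.14, against 0 over all detected genes. Of the 8, 5 were below 0, as were 49.5% of all detected genes. Their median absolute change was 0.14, beside 0.16 over all detected genes and 0.13 over the 5106 brighter genes, those averaging 8 or more in log2 signal. At a looser limit, a signal 25% higher in one pool than in the other, 1 member, Atp2c1, was lower and 0 were higher, where 9.97% of all detected genes were lower and 11.6% higher. The members' changes were of the size common on these arrays. A second probe shows how firmly such sizes can be read: across the 2211 genes with at least 2 detected probes, the first and second probe had the same sign in 62.0% and differed by a median of 0.18. The authors' normalized values gave fewer calls over all genes, 48 higher (0.541%) and 15 lower (0.169%), against 275 higher and 202 lower here, and again 0 of the members.

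**Figure D3:**
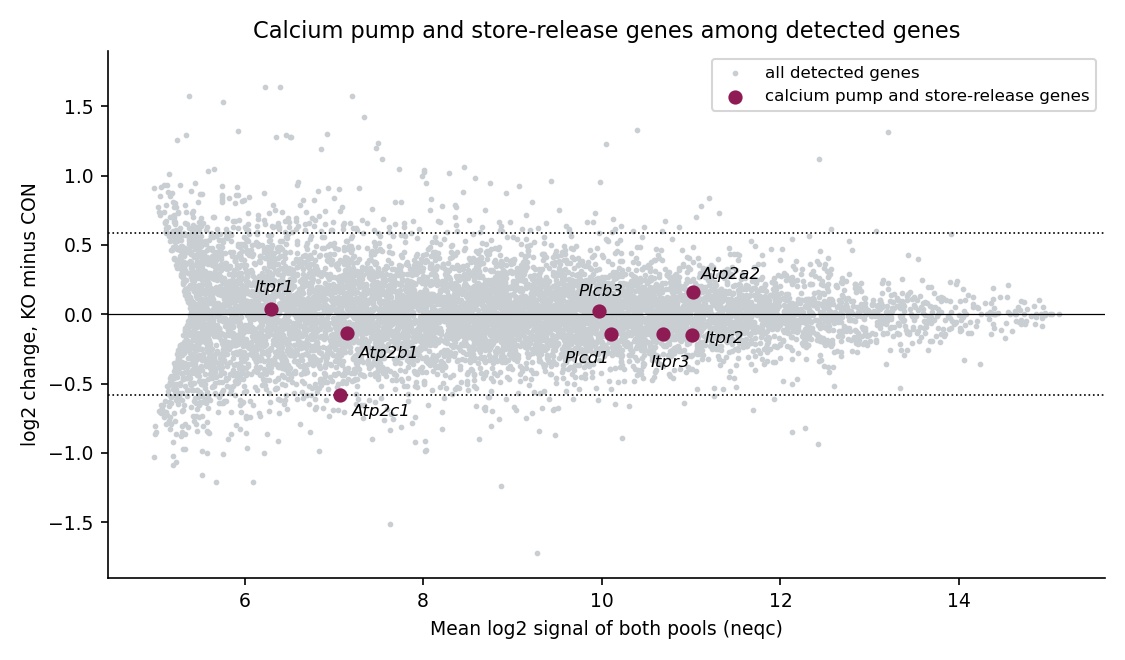
Mean log2 signal of both pools (x axis) against the log2 change, KO minus CON (y axis), for all 8865 detected genes in grey and the 8 detected members in purple, with dotted lines at 1.5-fold and 10 grey genes outside the axis. The members lie within the grey cloud, and Atp2c1 sits just inside the lower dotted line.

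The genes around the members were followed in 10 lists of related functions with 137 genes, of which 126 had a probe and 73 were detected. On the background-corrected scale 1 gene of these lists was past 1.5-fold higher in KO (Pip5k1b) and 1 past it lower (Rgs3), beside 3.1% and 2.28% of all detected genes, and the median log2 change was -0.02. Pip5k1b was detected in KO alone, and its lower bound there was under 1.5-fold. Both genes were dim, and in the authors' normalized values 0 of the 73 genes passed. The calcium sensing receptor gene Casr, which signals through Gq, was not detected, at 149.0 in KO and 136.9 in CON.

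Among other pumps and exchangers 4 of 12 genes with a probe were detected and 0 passed the 1.5-fold rule. Atp2a3, the gene of the third SERCA pump, read 551.6 in KO and 518.8 in CON, a change of 0.06. The muscle pump gene Atp2a1 and the plasma membrane pump genes Atp2b2 and Atp2b3 were not detected. Slc8b1, which encodes the exchanger that lets calcium out of mitochondria, had the largest change of this list, with 796.9 in KO and 967.9 in CON, or -0.37. The exchanger genes Slc24a3 and Slc8a1 changed by -0.23 and -0.11. Of the pump regulators 4 were detected and 0 passed, and Tmco1, a gene of a calcium load-activated channel of the endoplasmic reticulum, was highest at 0.32, followed by Tmx1 at 0.07 and Clcc1 at 0.04.

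Upstream of IP3, 6 other phospholipase C genes were detected and 0 passed. Plcb2, a form best known from blood cells, was detected in KO alone, at 176.3 in KO and 157.6 in CON. It was at least 1.19-fold higher in KO on the background-corrected scale and 1.11-fold higher in the authors' normalized values. Plcb4 changed by 0.17 and Plcd3 by -0.12. In the list of Gq subunits, their receptors and regulators 8 genes were detected. Rgs3, which encodes an inhibitor of Gq signalling, had 177.5 in KO and 198.7 in CON at the 1 detected probe of 8, 1.55-fold lower in KO here and 1.18-fold lower in the authors' normalized values. Gnaq, the gene of the Gq alpha subunit, read 217.8 in KO and 234.4 in CON, a change of -0.37, and the thrombin receptor gene F2r changed by 0.18. The Gq class as a whole thus went both ways, with a median of 0.02.

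Lipid supply and removal genes showed single differences in both directions. Of 13 detected genes that supply phosphoinositides, Pip5k1b, a kinase gene for the substrate of phospholipase C, was detected in KO alone (181.3 in KO and 154.6 in CON). On the background-corrected scale it was at least 1.31-fold higher in KO, a lower bound that does not reach the 1.5-fold rule, and in the authors' normalized values it was 1.17-fold higher. Pi4ka, a kinase gene that starts this supply, read 301.2 in KO and 353.4 in CON, a change of -0.47, and Pip4k2a changed by 0.30. Among 9 detected genes that remove IP3 or diacylglycerol, Dgkq, a diacylglycerol kinase gene, was lowest, at 373.1 in KO and 465.5 in CON, or -0.53. The IP3 phosphatase gene Inpp5a changed by -0.24 and the IP3 kinase gene Itpka by 0.23. Of the protein kinase C and D genes 6 were detected and 0 passed, with the largest changes in Prkd3 (0.43), Prkcb (0.32) and Prkd2 (-0.21).

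Partners of the IP3 receptors stayed close to 0, with 12 detected, 0 past 1.5-fold and a median of -0.04. Bok, a gene of the BCL2 family whose product binds IP3 receptors, read 2323.1 in KO and 1801.0 in CON, a change of 0.35, but its second probe changed by -0.15. Itprip changed by -0.28 and Bcl2 by 0.25. The ryanodine receptor genes Ryr1, Ryr2 and Ryr3, the other release channels, were not detected in either pool, and of their partners only Asph and Jph2 were, both with changes of 0 at the brightest probe. The other detected Asph probes changed by -0.21 and -0.91.

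Among genes for calcium uptake by mitochondria differences went both ways. Mcu, which encodes the channel of the uniporter, read 199.7 in KO and 228.1 in CON, 1.499-fold lower in KO, which narrowly missed the rule. In the authors' normalized values Mcu was 1.2-fold lower in KO. Vdac3, an outer membrane channel gene, changed by 0.33 in the other direction. Of the 9 detected genes 0 passed the 1.5-fold rule, and the median was -0.03.

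**Figure D4:**
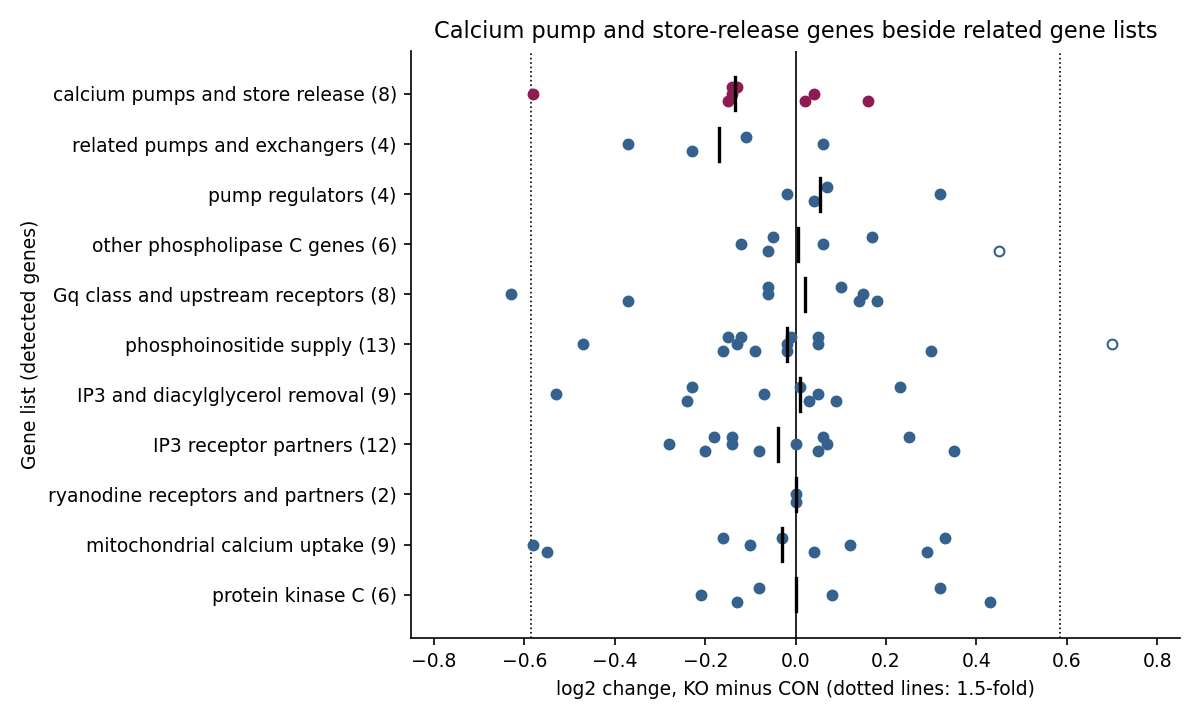
The log2 change (KO minus CON) of every detected gene in the calcium pump and store-release set (purple, top row) and in 10 related lists (blue), with black bars at the medians, open points for genes detected in 1 pool and dotted lines at 1.5-fold. List medians lie between -0.17 and 0.06, and Rgs3 and Pip5k1b are the genes beyond a dotted line.

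Markers of the cell types that the pools could hold gave the following values. Of the 7 skeletal muscle markers with a probe 4 were detected, and the summed raw signal of the 4 was 1037.7 in KO and 842.9 in CON. These sums still hold the background of each probe, on average 141.93 in KO and 137.94 in CON, so their ratio is not a fold above background. On the background-corrected scale 3 of the 4 markers were past 1.5-fold higher in the pool labelled KO, as were 3.1% of all detected genes. Of these 3 Myl1 was detected in both pools, at 278.6 in KO and 169.2 in CON. Myh8 and Acta1 were detected in KO alone and were at least 1.53-fold and at least 1.04-fold higher there. The other detected marker, Mylpf, had the highest raw signal of the 4 in KO and in CON. It read 398.3 in KO and 381.4 in CON, a log2 change of 0.02. In the authors' normalized values 1 muscle marker passed, Myl1 at 1.64-fold. The muscle forms of the calcium genes, Atp2a1, Ryr1, Casq1 and Sln, were not detected in either pool. Of keratinocyte markers, the basal ones had a median log2 change of 0.05 over 5 detected genes and the suprabasal ones of -0.13 over 6. Melanocyte markers had a median of -0.20 over 4, Langerhans cell markers of 0.03 over 4 and T cell markers of 0.16 over 5. Of 6 fibroblast markers 2 were detected, with a median of -0.49, and the collagen gene Col1a1 was 1.78-fold lower, at 173.1 in KO and 202.3 in CON. The other, Dcn, read 613.4 in KO and 646.3 in CON, a log2 change of -0.16, and its second probe changed by 0.03. The 1 erythroid marker detected, the haemoglobin gene Hba-a1, changed by -0.69, at 546.9 in KO and 783.1 in CON. Neither Col1a1 nor Hba-a1 reached 1.5-fold in the authors' normalized values. The part of these shifts in the members' values was not tested. Endothelial markers were not detected, 0 of 5.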

How the data were processed

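Epidermal RNA of 2 pools, 1 per genotype and each from 3 mice, was read on a biotin-labelled Illumina bead array, per the labels. The submitters' processing notes name GenomeStudio 2011.1. Deposited by the authors were non-normalized intensities and, for every probe, a detection p-value (per the file headers). The authors' normalized intensities keep the background, and the sorted signals of both arrays agreed within 0.3. The series matrix held the same values.

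The non-normalized intensities were corrected and quantile-normalized with neqc (limma 3.58.1, R 4.3.3, offset 16), with the background inferred from the detection p-values. Later steps used Python 3.11.15. The offset and background model change the fold of dim genes. Probes were renamed through RefSeq genes of GRCm38.p6 by Entrez identifier (16938 probes), accession (7420), symbol (465) or synonym (552), and 322 kept the file's name. The member probes were named by identifier or accession. A gene was its brightest detected probe, and changed meant 1.5-fold or more. The normalization was tested on simulated arrays with changes set in bright probes only, so that test does not cover the folds of dim genes. For a gene detected in 1 pool the fold is a lower bound on the background-corrected scale, and other scales can give a smaller fold. The bound was taken against the gene's own signal in the other pool or that array's lowest detected signal, whichever was greater.

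The members, lists and rules were chosen with earlier results of these data known. All members were named, and of each list the 3 detected genes with the largest change plus any past 1.5-fold, except 1 that is not reported here. Muscle, lineage, Vdr and Casr values were added for context. Probe positions and bead errors were not used here. Alternatives covered background, scaling, detection, probe choice and threshold.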

Additional observations from a re-analysis of the deposited data

How the results depend on the processing

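The count of 0 members past 1.5-fold in either direction was the same under all 5 other scales, the looser and stricter detection rules, no filter, the mean of detected probes and a 2-fold limit, while at a limit of 25% 1 member was lower. The members' median ranged from -0.14 to -0.05, with -0.05 in raw ratios and with no filter, and Atp2c1 ranged from -0.58 to -0.24. For the related lists, the 1 higher and 1 lower gene became 0 and 0 without background correction, in the authors' normalized values, in raw ratios and with an offset of 50, as well as in genes averaging 8 or more in log2 signal, an alternative chosen after seeing the data. With detection in both pools 0 were higher, and with detection p under 0.05 or no filter 2 were higher. Over all detected genes the 275 higher and 202 lower calls became 50 and 23 without background correction, 48 and 15 in the authors' normalized values, 69 and 13 in raw ratios and 102 and 57 with an offset of 50. Dim probes therefore carry folds that depend on the background model. No paired analysis was possible because each genotype had 1 pool, and for the same reason no replicate could be left out.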

Other observations

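Of 21 members and list genes with at least 2 detected probes, 8 had all probes on the same side of 0 and 13 (61.9%) did not, with a median span of 0.18 between the highest and lowest log2 change. Over all 2211 genes with at least 2 detected probes, 45.5% had probes on both sides of 0, and the median span was 0.24. A sign can turn on a change close to 0, so the share says little of the size of the disagreement. Atp2a2 (span 0.10), Itpr2 (0.13), Prkd3 (0.10) and Bcl2 (0.26) were among those with 1 sign. Asph had the largest span, 0.91, and Erlin2 and Bok spanned 0.52 and 0.50 with opposite signs. These genes were chosen after their values were seen, and the cause was not tested.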
